A study of Homo sapiens with 6 samples.

Results

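Molecular chaperones were followed here in A375 cells, a human melanoma line, through 84 genes with 132 probes on the array. The genes were taken by symbol: the HSPA, HSPB, HSPD, HSPE, HSPH and HSP90 heat shock proteins, the DNAJA, DNAJB and DNAJC genes, the cytosolic chaperonin genes CCT2 to CCT8 and TCP1. By the same spelling HSPBP1 and HSPBAP1, partners of HSP70 and of the small heat shock protein HSPB1, were included. After a filter on dim probes, 70 of these genes were measured with 102 probes, out of 11220 genes measured with 18747 of the 48107 probes on the array. The tested cells were 3 samples given 3 µM vemurafenib, an inhibitor of mutant BRAF kinase, for 24 h, and the controls were 3 samples given the solvent DMSO for 24 h. Total RNA of each sample was labelled with biotin and hybridised to an Illumina bead array. A375 is 1 established line, so the samples stand for that line alone, and its source is labelled as a melanoma metastasis. The samples of each group are labelled as unnumbered, 1 and 2, and values of single samples are given in that order. Whether they came from different cultures is not stated in the labels, and the p-values therefore reflect a spread among samples that could be technical.

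HSP70 proteins bind exposed stretches of unfolded proteins in a cycle driven by ATP. J proteins, the products of the DNAJ genes, bring clients to HSP70 and start ATP hydrolysis, and HSP110 proteins exchange the nucleotide so that the client is released. HSP90 acts later on kinases and receptors, mutant BRAF among its known clients, while the ring-shaped chaperonins TRiC in the cytosol and HSPD1 with HSPE1 in mitochondria enclose whole clients such as actin and tubulin or imported enzymes. Each compartment also answers to its own stress pathway, the heat shock response in the cytosol and the unfolded protein response in the endoplasmic reticulum (ER).

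The arrays had median signals of 91.0 to 94.5 intensity units against an inferred background mean of 85.0 to 88.3, and 38.2% to 41.7% of probes were detected per array. DUSP6, a phosphatase that ERK induces and whose level reports the pathway blocked by the drug, fell 8.92-fold with vemurafenib (limma adjusted p = 0.00132). In both groups the sample numbered 2 stood apart from the unnumbered and 1 samples. Over the 70 chaperone genes the median absolute log2 difference between the unnumbered and 1 samples was 0.18 with vemurafenib and 0.10 with DMSO, against 0.31 to 0.34 with vemurafenib and 0.43 to 0.44 with DMSO for pairs that included sample 2. Deviations from the group mean correlated between samples of the same number (r of 0.19, 0.35 and 0.52 across genes for the unnumbered, 1 and 2 samples). Vemurafenib 1 also correlated with DMSO unnumbered (0.35), and vemurafenib unnumbered with DMSO 1 (0.26). These correlations set sample 2 apart and do not settle how the unnumbered and 1 samples pair, which the labels do not state. Results of a fit with the sample number as a replicate block are given where they change the call of a gene named here. That fit assumes a pairing by number. Of 7 melanocyte lineage markers on the array 3 were detected, MITF, SOX10 and S100A1, and the summed log2 level of the 7 was 40.3 to 42.0 with vemurafenib and 39.1 to 40.3 with DMSO. The 5 fibroblast markers, of which COL1A1, DCN and LUM were detected, had summed log2 levels of 25.2 to 28.3 with vemurafenib and 22.6 to 23.5 with DMSO. COL1A1 and DCN were detected on all 3 vemurafenib arrays and on no DMSO array, so they passed the filter through the vemurafenib group. No endothelial marker was detected, and 2 markers each were detected of keratinocytes (KRT10, KRT14) and leukocytes (CD14, CD68). The part of these genes in the results was not tested.

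With vemurafenib, 4 of the 70 measured chaperone genes rose and 2 fell at a limma adjusted p under 0.05. DNAJB2, DNAJC4, CCT6B and DNAJB5 rose, HSPA14 and HSPA4L fell, and the largest of these changes was 2.88-fold. This was 5.71% of the chaperone genes higher and 2.86% lower, against a background of 8.09% of all genes higher and 7.95% lower. At an unadjusted p under 0.05 the shares were 34.3% of the chaperone genes and 35.3% of all genes. The fitted log2 difference was negative for 46 of the 70 genes (65.7%), against 45.9% of all genes, and the median was -0.11, against 0.05 over all genes. The 3 vemurafenib values lay wholly above the 3 DMSO values for 10 genes (14.3%, with 21.8% of all genes as background) and wholly below them for 14 (20.0%, with 18.0% as background). With the replicate block, 8 chaperone genes were higher and 13 lower, which was 30% of them, and among all genes 16.2% were higher and 13.6% lower. Without vemurafenib sample 2, 6 were higher and 14 lower, or 28.6% of the chaperone genes, and the share of all genes called was also larger, at 23.8%. Without vemurafenib unnumbered, vemurafenib 1 or DMSO unnumbered, DNAJB2 alone passed. Without DMSO 1 DNAJB2 and HSPA4L passed, and without DMSO 2 these with the other 3 risen genes. In the same order of arrays, 2.74%, 3.51%, 3.65%, 5.42% and 10.39% of all genes were called in either direction. Calls were thus fewer among all genes too, and the losses of single chaperone genes given below are to be read against this. When arrays were centred on their medians instead of quantile normalized, 5 chaperone genes passed as higher and none as lower, because HSPA14 and HSPA4L no longer passed and DNAJC18 did. That scaling gave all genes a median of 0.12, in place of 0.05.

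**Figure D1:**
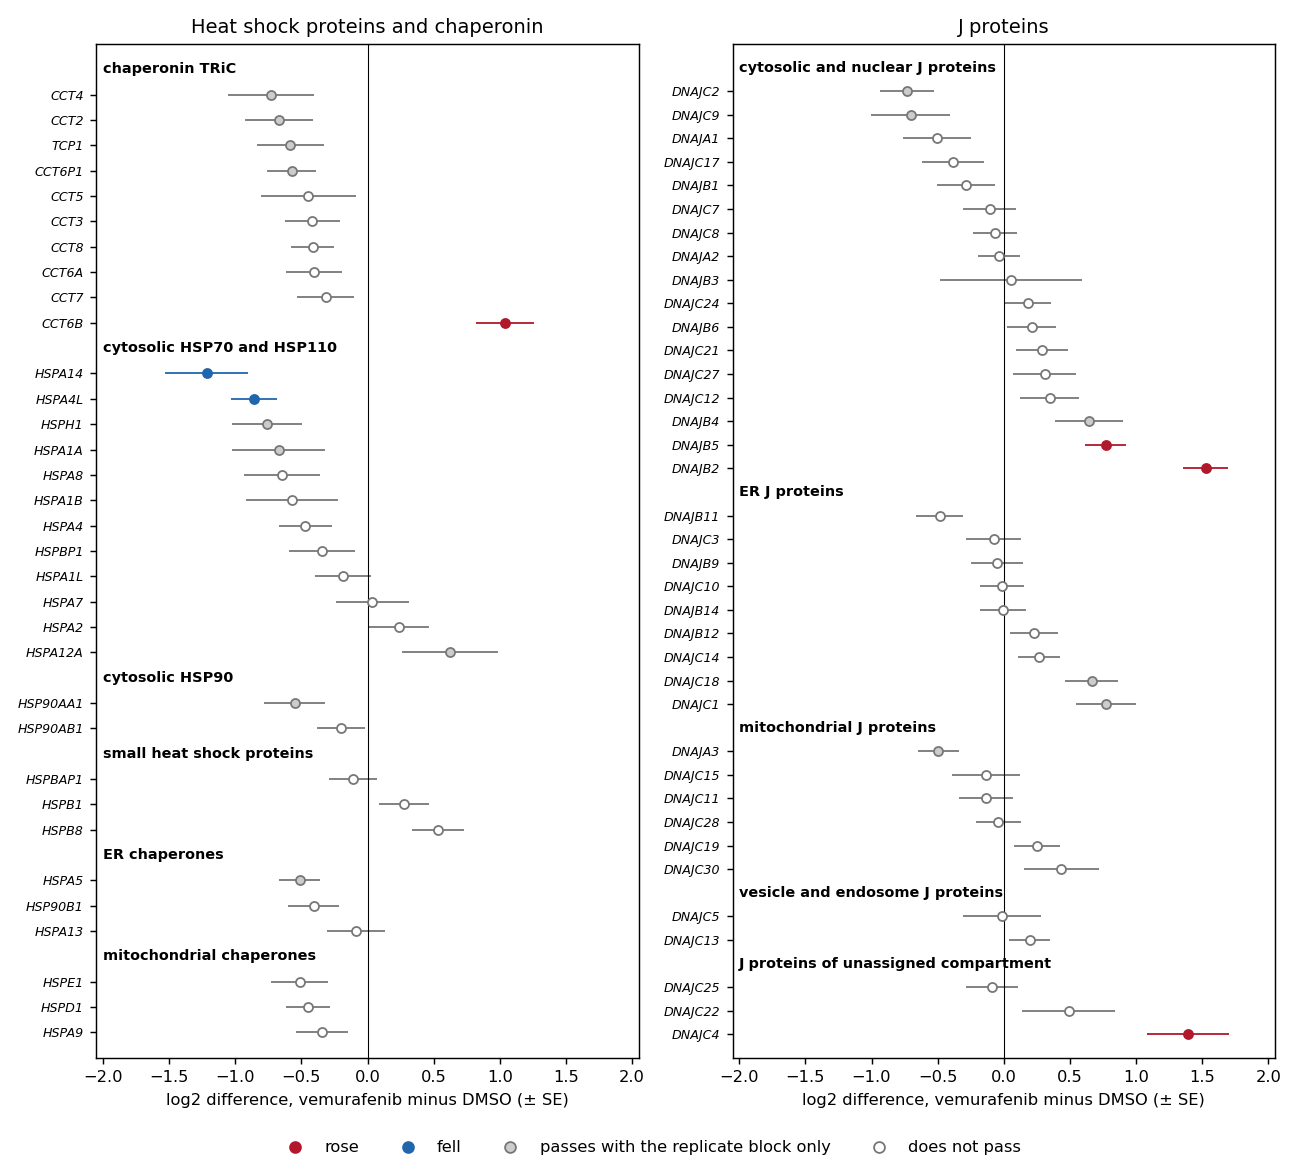
Log2 difference, vemurafenib minus DMSO, with its standard error (horizontal axis) for each of the 70 measured chaperone genes, grouped by class down the page; 3 samples per group. Red genes rose and blue genes fell by limma, grey filled points passed only with the replicate block, and the points of the TRiC subunits other than CCT6B lie left of 0.

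**Figure D2:**
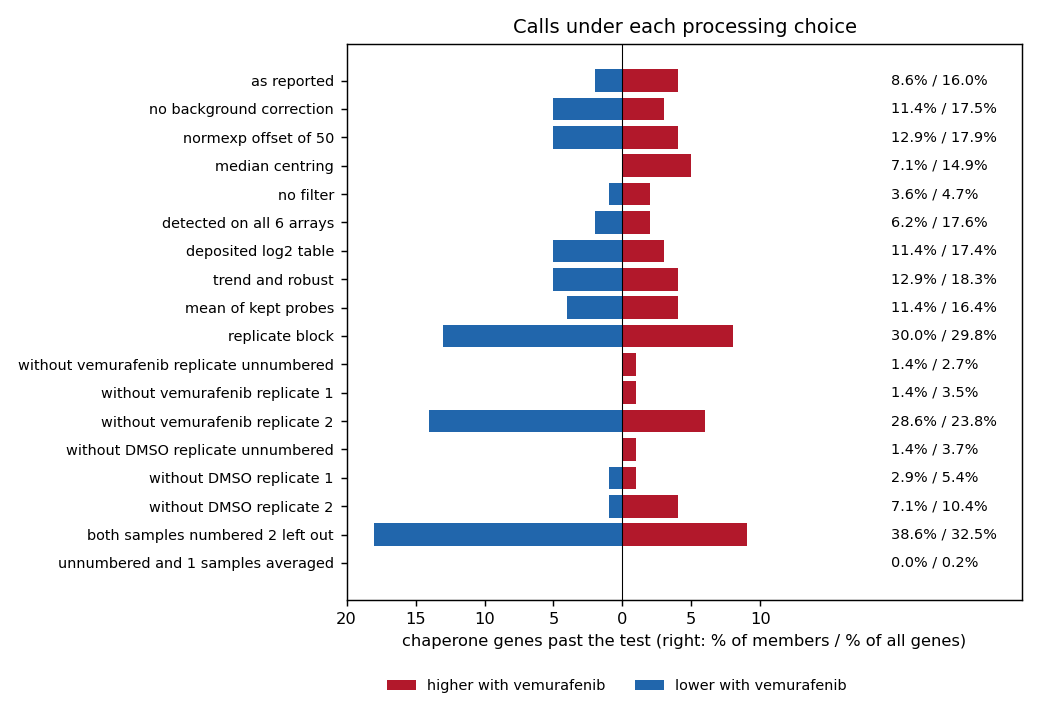
Number of chaperone genes past the test under each processing choice (horizontal axis), with genes higher with vemurafenib to the right of 0 and genes lower with vemurafenib to the left; the figures at the right are the percent of chaperone genes and of all genes called. The counts run between 0 and 9 higher and between 0 and 18 lower.

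The rises were led by DNAJB2, a J protein that binds ubiquitin and is best known from neurons. Its log2 intensity was 10.20, 10.15 and 9.96 with vemurafenib, against 8.59, 8.76 and 8.39 with DMSO. Every vemurafenib sample lay more than 1 log2 unit above every DMSO sample. The difference was 1.53 ± 0.17 (SE), a 2.88-fold rise (limma adjusted p = 0.00324), and it was called without each array in turn. A dim second DNAJB2 probe gave a difference of 0.02 (adjusted p = 0.944).

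DNAJC4, a J protein not assigned to a compartment here, measured 8.60, 8.81 and 7.98 with vemurafenib, against 7.37, 7.37 and 6.48 with DMSO. The groups did not overlap, and in each group sample 2 was the lowest. It rose 2.62-fold, by 1.39 ± 0.31 (SE; limma adjusted p = 0.0276), and its second probe rose by 1.62 (adjusted p = 0.0230). The call of DNAJC4 ended without vemurafenib unnumbered (0.108), vemurafenib 1 (0.102), DMSO unnumbered (0.0615) or DMSO 1 (0.0548).

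CCT6B is a form of the TRiC zeta subunit known from testis. Its log2 intensity was 6.43, 6.02 and 5.95 with vemurafenib, against 5.25, 5.30 and 4.73 with DMSO, with no overlap. It rose 2.06-fold, by 1.04 ± 0.22 (SE; limma adjusted p = 0.0241). The signal was detected on 3 vemurafenib arrays and 2 DMSO arrays, so the fold is approximate. The call ended without vemurafenib unnumbered (0.0969), vemurafenib 1 (0.0753), DMSO unnumbered (0.0632) or DMSO 1 (0.0533).

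DNAJB5, a cytosolic J protein related to DNAJB1, measured 5.52, 5.57 and 5.51 with vemurafenib, against 4.83, 4.86 and 4.60 with DMSO. The vemurafenib samples were nearly alike and all above the DMSO samples. It rose by 0.77 ± 0.15 (SE), 1.71-fold (limma adjusted p = 0.0203). It was detected on only 1 of 3 DMSO arrays, so this fold is also approximate. Leaving out vemurafenib unnumbered (0.0809), vemurafenib 1 (0.0824), DMSO unnumbered (0.0645) or DMSO 1 (0.0564) ended the call.

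HSPA14 is an atypical HSP70 that pairs with the J protein DNAJC2 on ribosomes. Its log2 intensity was 7.15, 6.82 and 7.91 with vemurafenib, against 8.30, 8.26 and 8.97 with DMSO. All vemurafenib samples were lower than all DMSO samples, with sample 2 the highest of each group. It fell 2.32-fold (log2 difference -1.22 ± 0.32 SE, limma adjusted p = 0.0413). The call was kept without vemurafenib 2 (0.00907) and ended without each of the other arrays, with adjusted p-values of 0.143 and 0.135 without vemurafenib unnumbered and 1, and 0.0873, 0.0746 and 0.0925 without DMSO unnumbered, 1 and 2. Its partner DNAJC2 measured 4.75, 4.61 and 5.10 with vemurafenib, against 5.29, 5.56 and 5.79 with DMSO. The groups of DNAJC2 did not overlap, and its difference of -0.73 ± 0.20 (SE) missed the threshold (adjusted p = 0.0505) and passed with the replicate block (0.0171).

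HSPA4L, an HSP110 protein that acts as a nucleotide exchange factor of HSP70, measured 5.56, 5.60 and 5.30 with vemurafenib, against 6.46, 6.13 and 6.44 with DMSO. The groups were separate by more than their own spread. It fell 1.81-fold (log2 difference -0.86 ± 0.17 SE, limma adjusted p = 0.0210). The call ended without vemurafenib unnumbered (0.0766), vemurafenib 1 (0.0662) or DMSO unnumbered (0.0778). For each of these 6 genes an exact two-sided permutation test over the samples gave p = 0.1, the smallest that 3 against 3 samples allow.

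**Figure D3:**
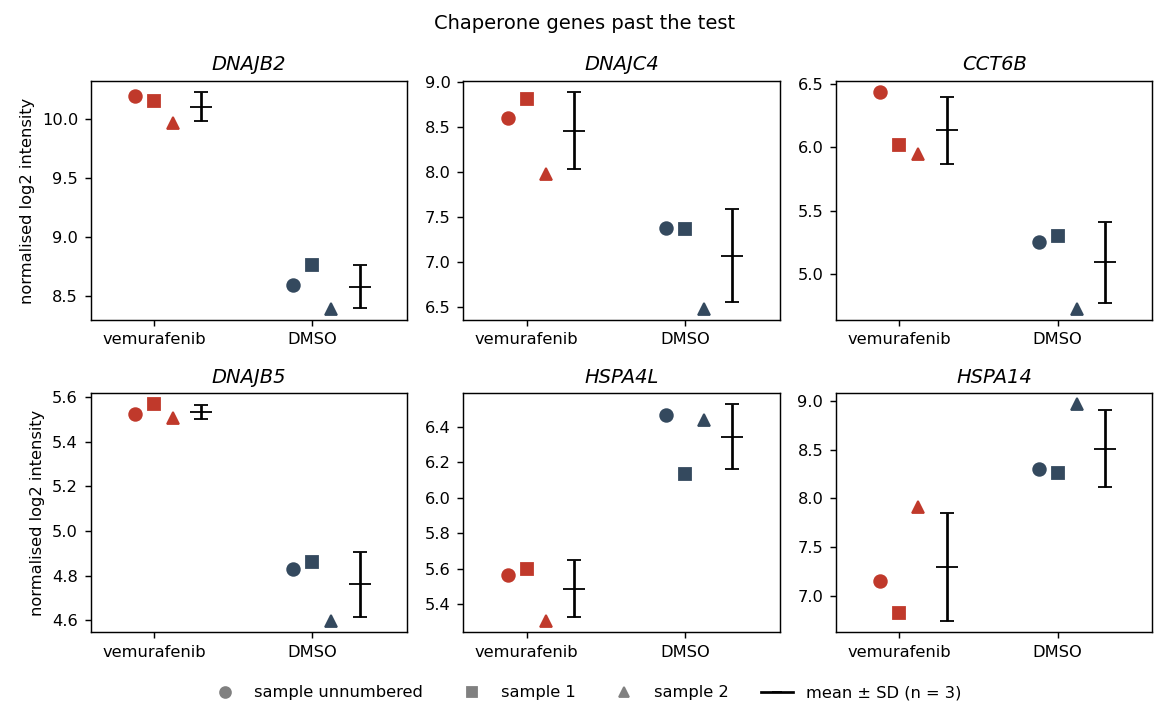
Log2 intensity (vertical axis) of the 6 chaperone genes that passed, with the 3 vemurafenib samples left of the 3 DMSO samples in each panel; points are samples and bars the mean with its SD. In each panel the groups do not overlap, with DNAJB2 the most widely separated at 9.96 to 10.20 with vemurafenib and 8.39 to 8.76 with DMSO.

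The cytosolic HSP70 and HSP110 proteins had 12 measured genes with HSPBP1, of which 2 fell as described, 9 had a negative difference, and the median was -0.52. The inducible HSP70 genes HSPA1A and HSPA1B code for nearly the same protein, and probes for one may read the other. HSPA1A measured 8.81, 8.66 and 9.54 with vemurafenib, against 9.27, 9.37 and 10.39 with DMSO. The vemurafenib sample 2 lay above 2 DMSO samples, and each vemurafenib sample lay below the DMSO sample of its number. The difference of -0.67 ± 0.35 (SE) did not pass (limma adjusted p = 0.234) and passed with the replicate block (0.0217). HSPA1B had a difference of -0.57 ± 0.35 (adjusted p = 0.300).

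HSPA8, the constitutive HSP70 of the cytosol, measured 12.40, 11.69 and 12.40 with vemurafenib, against 12.55, 12.53 and 13.34 with DMSO. The groups did not overlap, but the gap was small beside the spread within them. Its difference was -0.65 ± 0.29 (SE; limma adjusted p = 0.171), while its second probe, also without overlap, fell by 0.91 (adjusted p = 0.0461). HSPH1, another HSP110 exchange factor, measured 10.56, 10.38 and 11.01 with vemurafenib, against 11.16, 11.17 and 11.91 with DMSO. It too had no overlap, missed the threshold with a difference of -0.76 ± 0.26 (adjusted p = 0.0918) and passed with the replicate block (0.0130). HSPA4, of the same HSP110 branch, lay at -0.47 ± 0.20 (adjusted p = 0.155), without overlap.

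The other HSP70 relatives ran both ways. HSPA12A, a distant relative, measured 8.02, 7.90 and 6.95 with vemurafenib, against 7.18, 7.45 and 6.37 with DMSO. Sample 2 was the lowest of each group, and within each number vemurafenib was the higher. Its difference of 0.62 ± 0.36 (SE) had a limma adjusted p of 0.283 and passed with the replicate block (0.0275). HSPBP1 (-0.34), HSPA1L (-0.19), HSPA7 (0.04) and HSPA2 (0.24) did not pass, and HSPA7 is a close copy of the unmeasured HSPA6, so its probe may read both.

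In both groups the sample numbered 2 was above the other samples for most HSP70 and HSP110 genes. By the median over the 12 genes it lay 0.31 above the other vemurafenib samples and 0.65 above the other DMSO samples, whereas over all genes it lay 0.00155 and 0.0144 above them. Taken within pairs, vemurafenib minus DMSO, the class median was -0.27 for the unnumbered samples, -0.49 for those numbered 1 and -0.72 for those numbered 2.

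Both cytosolic HSP90 genes had negative differences that did not pass. The inducible HSP90AA1 measured 12.58, 12.74 and 13.36 with vemurafenib, against 13.34, 13.38 and 13.61 with DMSO. The vemurafenib sample 2 reached the lowest DMSO sample, and the other vemurafenib samples lay below all of them. The difference was -0.55 ± 0.23 (SE; limma adjusted p = 0.144) and passed with the replicate block (0.0491). The constitutive HSP90AB1 measured 11.40, 11.18 and 11.70 with vemurafenib, against 11.59, 11.56 and 11.73 with DMSO. The overlap again rested on vemurafenib sample 2, with the other vemurafenib samples below all DMSO samples, and the difference was -0.20 ± 0.18 (adjusted p = 0.490).

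Of the small heat shock proteins, which hold unfolded clients without ATP, 3 of 8 genes including HSPBAP1 were measured. HSPB1, also called HSP27, measured 13.02, 13.16 and 12.99 with vemurafenib, against 12.97, 12.92 and 12.46 with DMSO. The groups did not overlap, but the lowest vemurafenib sample all but met the highest DMSO sample. HSPB8, which works with BAG3 in the removal of aggregates, measured 7.42, 7.21 and 7.74 with vemurafenib, against 6.99, 7.09 and 6.70 with DMSO, also without overlap. The differences of 0.28 ± 0.19 for HSPB1 (limma adjusted p = 0.355) and 0.53 ± 0.20 for HSPB8 (adjusted p = 0.110) did not pass, and HSPBAP1 lay at -0.11.

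The 17 measured cytosolic and nuclear J proteins had a median difference of 0.05, with 9 positive and 8 negative. Besides the rises of DNAJB2 and DNAJB5, DNAJB4, a further relative of DNAJB1, measured 6.0, 5.97 and 6.76 with vemurafenib, against 5.41, 5.49 and 5.90 with DMSO. The groups did not overlap, and the difference of 0.64 ± 0.26 (SE; limma adjusted p = 0.130) passed with the replicate block (0.0244). DNAJC9, a J protein that also binds histones, measured 9.21, 9.13 and 10.03 with vemurafenib, against 10.04, 9.84 and 10.60 with DMSO. Sample 2 of vemurafenib overlapped the DMSO samples, and the difference of -0.70 ± 0.30 (adjusted p = 0.148) passed with the replicate block (0.0158).

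The general HSP70 partners of the cytosol did not pass in either fit. DNAJA1 measured 11.53, 11.45 and 11.84 with vemurafenib, against 11.84, 11.84 and 12.67 with DMSO, so that the vemurafenib sample 2 all but met the lowest DMSO samples. Its difference was -0.51 ± 0.26 (limma adjusted p = 0.219), that of DNAJB1, the stress-induced partner, -0.29 ± 0.22 (0.412), and that of DNAJA2 -0.04 ± 0.16 (0.898). The splicing-associated DNAJC8 lay at -0.07 and DNAJC7, which also binds HSP90, at -0.11. The remaining members of the class, DNAJC17, DNAJB3, DNAJC24, DNAJB6, DNAJC21, DNAJC27 and DNAJC12, lay between -0.39 and 0.35 and did not pass. DNAJB3 had the widest spread, with 7.72, 8.02 and 5.82 in the DMSO samples.

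The promoters of the cytosolic chaperones are shown because the heat shock response acts on inverted repeats of the block GAA there. Windows of 300 bases, 250 before to 50 after a start, came from RefSeq (GRCh38.p14) for 74 of the 84 genes. Several starts were listed for 17 of the 74, and a gene was counted where any of its windows held a match. The windows were searched on both strands for the heat shock element, which was taken as GAA, TTC and GAA in a row with any 2 bases between neighbouring blocks. It was found for 7 of the 74 genes (9.46%), against 0.608% of 27305 genes, and 6 of the 7 were measured: HSPA8, HSP90AA1, HSP90AB1, DNAJA1, DNAJB6 and HSPD1. The stretches below hold the matches in capitals, at chr11:123062149-123062386 (minus strand) for HSPA8, chr14:102087090-102087162 (minus) for HSP90AA1, chr6:44247748-44247873 (plus) for HSP90AB1, chr9:33025246-33025318 (plus) for DNAJA1 and chr7:157336843-157336915 (plus) for DNAJB6. No other motif searched overlaps them.
HSPA8: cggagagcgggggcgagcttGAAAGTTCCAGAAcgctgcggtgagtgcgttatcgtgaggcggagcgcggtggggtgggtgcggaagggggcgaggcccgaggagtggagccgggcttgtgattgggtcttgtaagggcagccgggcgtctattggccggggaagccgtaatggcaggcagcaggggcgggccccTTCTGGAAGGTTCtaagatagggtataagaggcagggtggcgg
HSP90AA1: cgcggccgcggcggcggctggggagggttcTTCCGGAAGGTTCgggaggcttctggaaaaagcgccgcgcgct
HSP90AB1: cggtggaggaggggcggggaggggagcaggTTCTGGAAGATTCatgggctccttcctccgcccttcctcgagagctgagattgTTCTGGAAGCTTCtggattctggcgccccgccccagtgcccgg
DNAJA1: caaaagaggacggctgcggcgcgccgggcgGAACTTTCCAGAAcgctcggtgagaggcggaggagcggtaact
DNAJB6: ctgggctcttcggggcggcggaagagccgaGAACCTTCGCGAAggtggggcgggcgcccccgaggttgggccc
HSPA8 and HSP90AB1 each hold the element at 2 places and the other genes shown at 1. The differences of the 6 measured genes on their representing probes were -0.65 for HSPA8, -0.55 for HSP90AA1, -0.51 for DNAJA1, -0.45 for HSPD1, -0.20 for HSP90AB1 and 0.21 for DNAJB6, so 5 were negative and DNAJB6 positive. None of the 6 passed on these probes in the fit over all samples, and 65.7% of all measured chaperone genes were negative. Probe signs differed for DNAJB6, whose other probe fell by 0.81 (limma adjusted p = 0.0184), and for HSP90AA1, with 0.11 on a dim probe. HSPA1A, HSPH1 and DNAJB1, textbook targets of the heat shock response, had no match of these letters in their windows, which says only that these letters are not there.

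The cytosolic chaperonin TRiC is a double ring of 8 different subunits, and all 8 subunit genes had a negative difference, between -0.73 and -0.32 with a median of -0.43. None of the 8 passed in the fit over all samples, and TCP1, CCT2 and CCT4 passed with the replicate block. By limma 3 of the 8 (37.5%) had an unadjusted p under 0.05, against 35.3% of all genes. CCT2 measured 10.80, 10.54 and 11.34 with vemurafenib, against 11.43, 11.31 and 11.93 with DMSO. Within each number vemurafenib was lower by 0.59 to 0.78, while vemurafenib sample 2 overlapped the DMSO samples. The difference was -0.67 ± 0.26 (SE; adjusted p = 0.121, and 0.0177 with the replicate block).

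CCT4 measured 6.85, 6.93 and 7.88 with vemurafenib, against 7.85, 7.61 and 8.40 with DMSO. Here too vemurafenib sample 2 lay above 2 of the DMSO samples. The difference of -0.73 ± 0.32 (limma adjusted p = 0.165) passed with the replicate block (0.0190). TCP1, the alpha subunit, measured 9.71, 9.98 and 10.58 with vemurafenib, against 10.48, 10.59 and 10.94 with DMSO. Its difference was -0.58 ± 0.25 (adjusted p = 0.155, and 0.0340 with the replicate block).

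CCT8 measured 11.26, 11.25 and 11.45 with vemurafenib, against 11.54, 11.77 and 11.89 with DMSO. CCT3 measured 10.67, 10.21 and 10.80 with vemurafenib, against 10.89, 10.83 and 11.21 with DMSO. These 2 subunits had no overlap between groups, with differences of -0.42 ± 0.17 for CCT8 (limma adjusted p = 0.129) and -0.42 ± 0.21 for CCT3 (0.213). CCT7 (-0.32), CCT6A (-0.40) and CCT5 (-0.45) overlapped and passed in neither fit. CCT6P1, annotated as a pseudogene of CCT6A whose probe may read CCT6A as well, lay at -0.57 ± 0.19 without overlap (adjusted p = 0.0774, and 0.0275 with the replicate block). CCT6B thus rose while each of the 8 subunit genes lay below 0.

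Sample 2 was also higher here in both groups, by a median over the 10 measured chaperonin genes of 0.40 with vemurafenib and 0.43 with DMSO. The subunit median of the vemurafenib minus DMSO pairs was -0.25, -0.62 and -0.44 for the unnumbered, 1 and 2 samples. The heat shock element and the E-box were found in the window of none of the 9 chaperonin genes that had one.

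**Figure D4:**
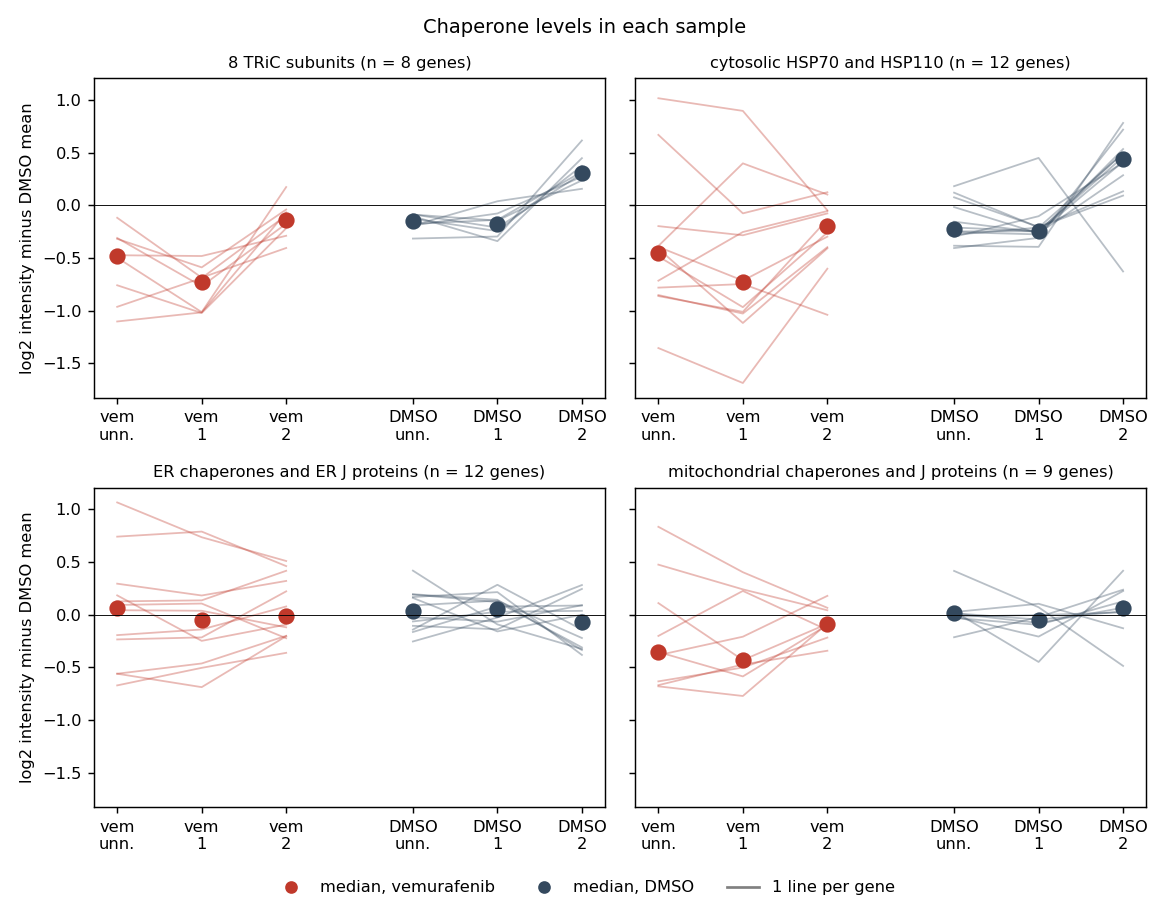
Log2 intensity minus the gene's DMSO mean (vertical axis) in each sample, for the 8 TRiC subunits, cytosolic HSP70 and HSP110 genes, ER members and mitochondrial members; a thin line joins the values of 1 gene within a group, and large points are medians over the genes. In the TRiC panel the median of sample 2 is above those of the other samples of its group, with vemurafenib and with DMSO.

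In the ER, 12 of 13 genes were measured, and none passed, with a median difference of -0.03. By limma 4 of the 12 (33.3%) had an unadjusted p under 0.05, against 35.3% of all genes. With the replicate block HSPA5 passed as lower and DNAJC1 and DNAJC18 as higher. HSPA5, the ER HSP70 also called BiP and the main sensor-binding chaperone of the compartment, measured 8.55, 8.71 and 8.85 with vemurafenib, against 9.15, 9.24 and 9.25 with DMSO. All vemurafenib samples lay below all DMSO samples, which were closely spaced. The difference of -0.51 ± 0.16 (SE; adjusted p = 0.0652) passed with the replicate block (0.0409).

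HSP90B1, the ER HSP90 also called GRP94, measured 11.58, 11.68 and 11.94 with vemurafenib, against 12.33, 12.26 and 11.83 with DMSO. The unnumbered and 1 pairs were lower with vemurafenib and the pair numbered 2 was not. The difference was -0.41 ± 0.20 (limma adjusted p = 0.198). HSPA13, a small ER-linked HSP70, lay at -0.09.

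The ER J proteins divided by difference. DNAJB11, a soluble partner of HSPA5, measured 10.28, 10.15 and 10.63 with vemurafenib, against 10.81, 10.77 and 10.93 with DMSO, without overlap, but its difference of -0.48 ± 0.18 did not pass (limma adjusted p = 0.107). DNAJC1, a membrane J protein, measured 6.13, 5.80 and 5.58 with vemurafenib, against 5.23, 5.28 and 4.68 with DMSO, and was detected on 2 of 3 DMSO arrays. Its groups did not overlap either, and the difference of 0.77 ± 0.23 (adjusted p = 0.0595) passed with the replicate block (0.0148).

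DNAJC18, another membrane J protein of the ER, measured 6.98, 7.03 and 6.70 with vemurafenib, against 6.43, 6.38 and 5.90 with DMSO. The groups were separate, and the difference of 0.66 ± 0.20 (limma adjusted p = 0.0622) passed with the replicate block (0.0189) and with median centring. DNAJC14 lay at 0.27 without overlap and DNAJB12 at 0.23 with overlap. DNAJB9, which supports protein disposal from the ER, DNAJC10, a disulfide reductase, DNAJC3, a co-chaperone of HSPA5, and DNAJB14 lay between -0.08 and -0.01.

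The ER stress element, taken as CCAAT, any 9 bases and CCACG, was searched on both strands of the same windows because the unfolded protein response acts through it. It was found for HSPA5 and HSP90B1 among the 74 genes (2.7%), against 0.0916% of all genes. They lie at chr9:125241361-125241439 (minus strand) and chr12:103930186-103930369 (plus strand) of GRCh38.p14, with the matches in capitals.
HSPA5: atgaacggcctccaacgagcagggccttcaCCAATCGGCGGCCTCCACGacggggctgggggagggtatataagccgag
HSP90B1: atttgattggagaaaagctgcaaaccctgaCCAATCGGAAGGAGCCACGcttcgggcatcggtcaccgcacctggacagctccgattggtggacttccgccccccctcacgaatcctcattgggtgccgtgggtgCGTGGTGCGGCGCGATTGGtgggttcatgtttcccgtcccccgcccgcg
HSP90B1 holds the element at 2 places, the second on the opposite strand. In the windows of the ER stress and folding genes described further on, 6 of 23 had it: CALR, CANX, CRELD2, ERO1B, PDIA6 and XBP1.

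In mitochondria all 9 genes were measured, and none passed, with a median difference of -0.14. By limma 3 of the 9 (33.3%) had an unadjusted p under 0.05, against 35.3% of all genes. The 3 chaperones proper lay together. HSPD1, the mitochondrial chaperonin HSP60, measured 12.55, 12.68 and 12.96 with vemurafenib, against 13.19, 13.10 and 13.25 with DMSO. The groups did not overlap, and the difference was -0.45 ± 0.17 (SE; adjusted p = 0.112). A second HSPD1 probe lay at -0.33 (adjusted p = 0.283), and a dim one, with 4.99, 5.52 and 5.51 with vemurafenib, against 6.93, 6.70 and 6.32 with DMSO, fell by 1.31 (adjusted p = 0.0139).

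HSPE1, the lid of HSPD1, measured 11.34, 11.25 and 11.93 with vemurafenib, against 11.99, 11.92 and 12.14 with DMSO. Only vemurafenib sample 2 touched the DMSO range. Its difference was -0.51 ± 0.21 (limma adjusted p = 0.145), and that of HSPA9, the HSP70 of the matrix, was -0.35 ± 0.20 (0.265). On the representing probes sample 2 exceeded the other samples of its group for HSPD1, HSPE1 and HSPA9, with vemurafenib and with DMSO. The second HSPE1 probe, with 10.36, 9.76 and 9.86 with vemurafenib, against 10.87, 10.93 and 10.23 with DMSO, lay at -0.68 (adjusted p = 0.109). On it and on the dim HSPD1 probe, sample 2 was the lowest with DMSO.

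HSPD1 and HSPE1 are neighbours transcribed away from each other, and RefSeq lists 2 starts for HSPD1 and 1 for HSPE1. The downstream HSPD1 window and the HSPE1 window, 38 bases apart on chromosome 2, are shown whole. The 38 bases are not the stretch between the genes, because the other HSPD1 window overlaps that of HSPE1. HSPD1 is shown at chr2:197499791-197500090 (minus strand), with overlapping heat shock elements in capitals. HSPE1 is shown at chr2:197500129-197500428 (plus strand), with the E-box CACGTG in capitals.
HSPD1: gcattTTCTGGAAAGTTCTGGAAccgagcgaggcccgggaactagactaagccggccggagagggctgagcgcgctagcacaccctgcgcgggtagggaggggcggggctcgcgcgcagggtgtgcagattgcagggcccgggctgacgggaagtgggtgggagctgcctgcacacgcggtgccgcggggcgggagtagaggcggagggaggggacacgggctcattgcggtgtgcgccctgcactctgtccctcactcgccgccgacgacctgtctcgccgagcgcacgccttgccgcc
HSPE1: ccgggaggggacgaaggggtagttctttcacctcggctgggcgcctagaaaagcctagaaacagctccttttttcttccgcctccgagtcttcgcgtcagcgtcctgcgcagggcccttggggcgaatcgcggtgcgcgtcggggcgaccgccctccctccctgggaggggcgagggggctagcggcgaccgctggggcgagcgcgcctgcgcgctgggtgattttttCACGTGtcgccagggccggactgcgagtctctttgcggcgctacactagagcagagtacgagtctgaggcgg
The E-box, a site that MYC family factors can bind, was found for 9 of the 74 genes (12.2%), against 8.77% of all genes, among them HSPA9, HSPE1 and HSPD1. The HSPD1 window shown holds none. Its match lies in the other HSPD1 window, chr2:197500225-197500524 (minus strand), which overlaps that of HSPE1, and it is the same site as the HSPE1 match, chr2:197500357-197500362.

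Of the 6 mitochondrial J proteins, DNAJA3, a partner of HSPA9, measured 10.03, 10.23 and 10.36 with vemurafenib, against 10.68, 10.70 and 10.72 with DMSO. All vemurafenib samples lay below the closely spaced DMSO samples. The difference of -0.49 ± 0.16 (SE; limma adjusted p = 0.0725) passed with the replicate block (0.0489). The import motor proteins DNAJC15 and DNAJC19 lay at -0.14 and 0.25, DNAJC11 at -0.14, DNAJC28 at -0.04 and DNAJC30 at 0.43 (adjusted p = 0.335). For DNAJC28 a single bright probe was kept of 4 on the array.

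Beside DNAJC4, the vesicle and unassigned J proteins did not pass. The synaptic vesicle protein DNAJC5 lay at -0.01, the endosomal DNAJC13 at 0.20, DNAJC25 at -0.09 and DNAJC22 at 0.49 (limma adjusted p = 0.383). DNAJC22 measured 7.65, 7.63 and 6.59 with vemurafenib, against 6.96, 7.20 and 6.25 with DMSO, with sample 2 lowest in each group as for DNAJC4.

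The 14 genes whose probes were not kept were CCT8L2, DNAJA4, DNAJB7, DNAJB8, DNAJB13, DNAJC6, DNAJC16, HSPA6, HSPA12B, HSPB2, HSPB3, HSPB6, HSPB7 and HSPB9. They were not detected on at least 3 of the 6 arrays, so differences in them could not be measured at this signal.

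Several probes per gene were kept for 23 of the 70 genes, and in 6 of these, DNAJB6, DNAJB12, DNAJC12, DNAJC21, HSP90AA1 and HSPA4, the fitted signs of the probes differed. DNAJB6, a J protein that holds back protein aggregation, was the case where a probe passed. Its representing probe measured 9.77, 9.59 and 9.74 with vemurafenib, against 9.38, 9.28 and 9.81 with DMSO, a difference of 0.21 (limma adjusted p = 0.488). Its other probe measured 8.81, 8.67 and 8.73 with vemurafenib, against 9.59, 9.38 and 9.66 with DMSO. That probe had no overlap and fell by 0.81 (adjusted p = 0.0184). Of the TCP1 probes, the representing one lay at -0.58, another fell by 1.19 (adjusted p = 0.0132), with 7.47, 7.73 and 8.07 with vemurafenib and 9.02, 8.75 and 9.09 with DMSO, and the last lay at -0.91 (0.166). In all, 5 probes that do not represent their gene passed, for DNAJB6, DNAJC4, HSPA8, HSPD1 and TCP1. With the mean of a gene's kept probes in place of the brightest one, HSPD1 passed as lower as well. DNAJC2 also passed as lower in that fit, though it has 1 probe and its values did not change. Its adjusted p by limma was 0.0505 in the fit on brightest probes.

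**Figure D5:**
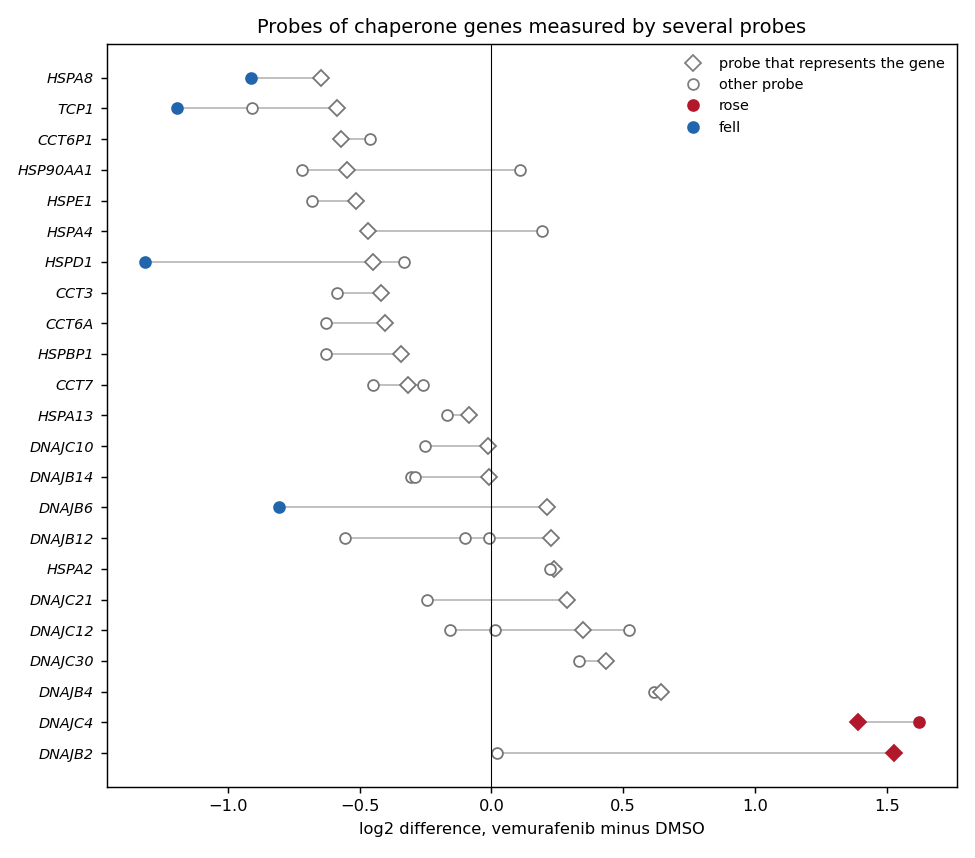
Log2 difference, vemurafenib minus DMSO (horizontal axis), of each kept probe for the 23 chaperone genes with several; diamonds are the probes that represent the gene, circles the others, and filled red or blue points passed by limma. DNAJB6 has a diamond right of 0 and a blue circle at -0.81, and the TCP1 and HSPD1 circles reach -1.19 and -1.31.

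The partners of the chaperones, from 4 lists of other genes, were compared in the same fit. The background for these lists was 8.09% of all genes higher and 7.95% lower, and 16.2% and 13.6% with the replicate block. Without an unnumbered or 1 sample of either group, 2.74% to 5.42% of all genes were called in either direction, and 10.39% without DMSO 2. Among 18 measured heat shock factors and cytosolic co-chaperones 1 fell (5.56%), with 13 negative differences and a median of -0.19. This was FKBP4, a prolyl isomerase that binds HSP90 in receptor complexes. It measured 7.80, 8.03 and 8.96 with vemurafenib, against 9.75, 9.74 and 9.96 with DMSO, without overlap, and fell 2.94-fold (log2 difference -1.55 ± 0.29 SE, limma adjusted p = 0.0175). With the replicate block 2 of the 18 were higher and 7 lower, 3 were lower without vemurafenib 2, and none passed without the unnumbered or 1 sample of either group. Beside FKBP4, those lower with the block were STIP1, which links HSP70 to HSP90 (-0.74, block adjusted p = 0.0225), SGTA (-0.68, 0.0206), CHORDC1 (-0.68, 0.0223), PTGES3, the HSP90 partner p23 (-0.57, 0.0302), and the HSP70 exchange factors BAG2 (-0.64, 0.0215) and BAG3 (-0.59, 0.0338). Those higher with the block were ST13, an HSP70 partner (0.56, 0.0336), and BAG6 (0.50, 0.0491). CDC37, which brings kinases to HSP90, lay at -0.33 and passed in neither fit.

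Among 9 measured genes of prefoldin, which hands actin and tubulin to the chaperonin, and of other TRiC partners, 1 fell (11.1%, with 7.95% of all genes as background). PFDN2, a prefoldin subunit, measured 5.52, 5.58 and 5.61 with vemurafenib, against 6.04, 6.11 and 6.55 with DMSO. The groups were separate, and the fall was 1.58-fold (-0.66 ± 0.18 SE, limma adjusted p = 0.0489). With the replicate block PDCL3 was lower as well (-0.53, block adjusted p = 0.0424). Without vemurafenib 2, 1 of the 9 was lower, and none passed without any of the other arrays. The other prefoldin subunits PFDN1, PFDN4, PFDN5, PFDN6 and VBP1 lay between -0.32 and 0.39.

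Among 20 measured ER stress sensors and folding factors 3 fell (15%, with 7.95% of all genes as background), and the median was -0.10. With the replicate block 1 was higher and 4 lower, against 16.2% and 13.6% of all genes. The genes gained with the block were SIL1, the exchange factor of HSPA5 (0.63, block adjusted p = 0.0235), and the oxidase ERO1A (-0.69, 0.0483). None passed without the unnumbered or 1 sample of either group. SDF2L1, which helps DNAJB11 and HSPA5, measured 8.80, 8.44 and 9.14 with vemurafenib, against 9.85, 10.08 and 9.75 with DMSO. It fell 2.14-fold (-1.10 ± 0.21 SE, limma adjusted p = 0.0186). MANF, a secreted ER stress protein, measured 10.87, 10.91 and 11.41 with vemurafenib, against 11.96, 11.97 and 11.84 with DMSO, and fell 1.82-fold (adjusted p = 0.0267). ERO1B, a disulfide oxidase, was detected on all 3 DMSO arrays and not well above background on any vemurafenib array, so it passed the filter through the DMSO group. It was at least 1.57-fold lower with vemurafenib (measured means 4.47 and 5.18 on the log2 scale, adjusted p = 0.0347), the DMSO mean being set against the higher, on each vemurafenib array, of the lowest detected signal and its own. None of these 3 genes had overlapping groups. The sensors ATF6 and EIF2AK3 lay at 0.15 and 0.18, XBP1 at -0.31 and the stress factor DDIT3 at 0.37.

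Among 13 measured mitochondrial chaperone partners and proteases 4 fell (30.8%, with 7.95% of all genes as background), and the median was -0.23. With the replicate block 5 were lower, against 13.6% of all genes. None passed without vemurafenib unnumbered, 1 was lower without vemurafenib 1, DMSO unnumbered or DMSO 1, and 2 were lower without DMSO 2. GRPEL1, the nucleotide exchange factor of HSPA9, measured 8.17, 8.05 and 8.64 with vemurafenib, against 9.58, 9.50 and 9.69 with DMSO. The groups lay far apart, and it fell 2.46-fold (-1.30 ± 0.19 SE, limma adjusted p = 0.00907). PAM16, a J-like regulator of the import motor, measured 9.47, 9.21 and 9.53 with vemurafenib, against 10.25, 10.37 and 10.41 with DMSO, and fell 1.92-fold (adjusted p = 0.0138). TRAP1, the mitochondrial HSP90, measured 8.93, 8.77 and 9.10 with vemurafenib, against 9.65, 9.59 and 9.52 with DMSO, and fell 1.57-fold (adjusted p = 0.0350). The protease LONP1 fell 1.55-fold (adjusted p = 0.0451), with 8.70, 8.67 and 9.04 with vemurafenib, against 9.38, 9.53 and 9.39 with DMSO. Vemurafenib values were below DMSO values without overlap in all 4 genes. The related exchange factor GRPEL2 lay at -0.55 and passed with the replicate block (0.0465), and the protease HTRA2 lay at 0.49.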

How the data were processed

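The deposited intensities of 48107 probes on 6 arrays are on a linear scale, with a detection p-value beside each in the deposited table; no source used here names the scanner software. The deposited log2 values of the same arrays differed by at most 0.0513 from log2 quantile-normalized intensities. How the deposited values were made is not stated, and their median over all arrays together is 6.54. In R 4.3.3, limma 3.58.1 corrected the background (normexp, background inferred from detection p-values, offset 16), followed by quantile normalization and log2. Missing values removed 4 probes. The filter kept probes whose detection p was below 0.01 on 3 or more arrays, and a gene was represented by its brightest kept probe. Symbols came from GEO's platform annotation, and all 84 matched RefSeq gene identifiers. Groups were compared with limma (lmFit, eBayes) as vemurafenib minus DMSO without covariates, with Benjamini-Hochberg adjustment over all 18747 kept probes and a threshold of 0.05. The script was tested on simulated data. The number of arrays limits the precision. Only the fit with the replicate block took the sample numbers as pairs. Same-number correlations were 0.19, 0.35 and 0.52, and the unnumbered and 1 samples also correlated across numbers (0.35 and 0.26). The correlations therefore do not settle how the unnumbered and 1 samples pair. Alternatives changed the background correction, normalization, filter, input table, variance model, probe rule, replicate block and samples. The members, classes and partner lists were chosen with earlier results of these data known. The naming rule took every passing member, up to 3 bright members of each class, and up to 4 passing genes of each partner list; other members, second probes and unpassed partners named were chosen after their values were seen. Promoters were searched in RefSeq windows of GRCh38.p14.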

Additional observations from a re-analysis of the deposited data

How the results depend on the processing

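The counts of chaperone genes past the limma threshold moved with the processing, and the cause was not tested. In place of 4 higher and 2 lower there were 8 higher and 13 lower with the replicate block (29.8% of all genes called), 9 higher and 18 lower with both samples numbered 2 left out (38.6% of the chaperone genes and 32.5% of all genes), and 0 in either direction with the unnumbered and 1 samples averaged (2 samples against 2, and 0.232% of all genes). That design has few samples, and its count says nothing about stability. Leaving out each replicate in turn gave 1 to 6 higher and 0 to 14 lower, with 2.74% to 23.8% of all genes called. Lower genes numbered 5 with no background correction, an offset of 50, the deposited log2 table or the trend and robust options, 4 with the mean of kept probes, 1 with no filter and 0 with median centring. In the same order, 17.51%, 17.95%, 17.37%, 18.27%, 16.35%, 4.71% and 14.95% of all genes were called in either direction, and 17.55% with detection on all 6 arrays. Higher genes numbered 2 with no filter or with detection on all 6 arrays, and the latter filter removed CCT6B and DNAJB5 before the test.

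By compartment, with the replicate block, TRiC had 1 of 10 genes higher, CCT6B, and 4 lower, CCT2, CCT4, TCP1 and the pseudogene CCT6P1. Cytosol and nucleus had 4 higher and 7 lower of 34, the ER 2 higher and 1 lower of 12, and mitochondria 1 lower of 9. Among all genes 16.2% were higher and 13.6% lower in that fit. With both samples numbered 2 left out TRiC again had CCT6B higher and 4 lower. The other counts, in the same order, were 4 and 8, 2 and 3, and 3, with 32.5% of all genes called. With the unnumbered and 1 samples averaged TRiC higher and both cytosolic counts were 0. TRiC higher was 0 with no filter, and 0 with detection on all 6 arrays because CCT6B was then not tested. TRiC, ER and mitochondrial lower counts were each 1 with no background correction, an offset of 50 or the deposited table. The lower TRiC gene in these settings was CCT6P1, annotated as a pseudogene, and none of the 8 subunit genes passed. The trend and robust options gave 1 lower for TRiC, again CCT6P1, and 2 for mitochondria, and the mean of kept probes 1 for mitochondria. Cytosol and nucleus had 1 higher with no background correction, detection on all arrays or the deposited table, 0 lower with median centring and 1 lower with no filter, and the ER 1 higher with median centring. Leaving out each replicate gave ranges of 0 to 1 higher and 0 to 4 lower for TRiC, 1 to 2 higher and 0 to 6 lower for cytosol and nucleus, 0 to 2 higher and 0 to 2 lower for the ER, and 0 to 2 lower for mitochondria.

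Of the comparisons of single genes with their alternatives, 1086 stayed on their side of the threshold, 65 gained a call and 33 lost one. No gene called in either of the compared fits changed sign. Sign changes of genes called in neither fit were counted among the 1086, as for DNAJB3, with -0.63 to 0.47 over the left-out arrays. Single losses outside the left-out arrays were those of HSPA14 with median centring (adjusted p = 0.0578) or no filter (0.113), HSPA4L with median centring (0.0586), DNAJC4 and CCT6B with no filter (0.0792 and 0.0567), and DNAJB5 with no background correction (0.0721) or the deposited table (0.0757). Averaging the unnumbered and 1 samples ended all 6 calls (0.105 to 0.229). The partner lists were run under the same alternatives, a choice made after seeing the data, and gave up to 7 lower co-chaperones, 2 prefoldin and TRiC partners, 4 ER genes and 6 mitochondrial partners. Signals lay close to background on these arrays, so differences of dim genes such as DNAJB5, CCT6B and DNAJC2 are compressed.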
